A study of Mus musculus with 30 samples.

Results

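The epidermal differentiation complex is a cluster of genes that keratinocytes switch on as they leave the basal layer of the epidermis and die to form the cornified layer. Its products are laid down under the cell membrane, crosslinked by transglutaminases and joined to lipids, which makes the cornified envelope, the water barrier of the skin. They are known as genes of keratinocytes and not of melanoma cells. The members described here were chosen by name, as genes whose symbol begins with Lce or Sprr, together with Lor, Flg, Flg2, Ivl, Hrnr, Rptn, Tchh, Tchhl1, Crnn, Crct1 and Kprp, provided that at least 1 tumor had more than 10 counts. Of 49 genes with such a name, 43 met the rule, out of 39676 gene identifiers counted. Lce3a, Lce3b, Sprr2c-ps, Sprr2f, Sprr2k and Sprr3 had 10 counts or fewer in every tumor.

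The samples were 30 whole tumors of the B16 mouse melanoma line, collected on day 8 after inoculation under the skin of female C57BL/6 mice. There were 10 B16-IFNA4 tumors, whose cells had been transduced with a retrovirus that expresses interferon alpha 4 and green fluorescent protein from the viral promoter. There were 10 B16-IFNA9 tumors, made in the same way with interferon alpha 9, and 10 B16-GFP tumors, made with the vector that carries green fluorescent protein alone. All 3 types also carried herpes simplex virus glycoprotein B and luciferase, the controls included. The lines had been sorted for the fluorescent markers, whether they were clones is not given in the sources used here, and RNA came from whole tumors, so that host cells were not removed. Between 14598517 and 19788383 reads were counted in each tumor.

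All 43 members lie on chromosome 3 between positions 92080271 and 93471980 of GRCm38. The late cornified envelope genes (Lce) made up 19 of them and the small proline-rich genes (Sprr) 13. A further 7 encode large S100-fused proteins that package keratin filaments or hair root sheath, namely Flg, Flg2, Hrnr, Rptn, Tchh, Tchhl1 and Crnn. Lor and Ivl encode loricrin and involucrin, the best known envelope proteins, and Crct1 and Kprp are small genes of the same cells. Differences between tumor types were tested in edgeR with a quasi-likelihood F-test on all 15926 genes whose mean count reached 10, p-values were adjusted over those genes after Benjamini and Hochberg, and genes with an adjusted p under 0.05 were called differentially expressed genes (DEGs). In all, 36 members passed that count filter, and the other 7 (Lce3d, Lce3e, Lce3f, Sprr2d, Sprr2e, Sprr2i and Sprr2j-ps) are given by counts only. Levels are given as CPM, the counts scaled to a common library total after TMM correction.

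Several members cannot be told apart by reads of 50 bases. Sprr2a1 and Sprr2a2 have overlapping gene models, share 96.3% and 96.5% of their stretches of 50 bases with other genes, and had equal counts in 22 of 30 tumors and counts within 2 of each other in the rest. Sprr2a3 shared 61.1%, and the 3 genes are best read as 1. The Lce1 genes other than Lce1m shared between 9.12% and 27.1%. Rplp0-ps1, a ribosomal pseudogene, lies inside Flg on the same strand, and the lincRNA Gm37245 runs opposite to Hrnr, Rptn and Tchh, and the strand setting of the counting is not given in the sources used here, so the values of Flg, Hrnr, Rptn and Tchh could hold reads of these genes. Gm37857 likewise lies on the strand of Rptn, and Gm37087 and the pseudogene Gm5850 run opposite to Sprr2a2.

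The stretches just before the start sites of 6 members are shown because these genes carry the differences described in the sections that follow: Tchh, Tchhl1 and Crnn, which were high in a few tumors, Sprr4 and Rptn, which differed most from B16-GFP among the other tested members, and Lor, which was lower in B16-IFNA9. Each holds the 150 bases before the RefSeq start site on the gene's own strand in GRCm38.p6, with matches to TGANTCA (the AP-1 motif) and to TATAAA (the TATA box) in capitals.
Tchh, chr3:93442180-93442329, plus strand: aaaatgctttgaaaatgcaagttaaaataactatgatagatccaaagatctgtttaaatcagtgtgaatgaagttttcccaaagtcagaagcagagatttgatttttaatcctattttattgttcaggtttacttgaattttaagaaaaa
Tchhl1, chr3:93468604-93468753, plus strand: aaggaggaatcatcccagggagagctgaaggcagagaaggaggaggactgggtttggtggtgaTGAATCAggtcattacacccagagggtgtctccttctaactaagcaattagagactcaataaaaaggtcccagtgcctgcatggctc
Crnn, chr3:93144639-93144788, plus strand: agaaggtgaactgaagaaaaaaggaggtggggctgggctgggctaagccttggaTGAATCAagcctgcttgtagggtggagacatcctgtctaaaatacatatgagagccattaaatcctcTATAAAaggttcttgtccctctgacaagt
Lor, chr3:92083143-92083292, minus strand: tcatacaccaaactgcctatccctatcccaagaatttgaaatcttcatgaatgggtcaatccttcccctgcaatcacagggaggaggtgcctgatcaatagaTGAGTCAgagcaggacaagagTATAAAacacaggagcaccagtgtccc
Sprr4, chr3:92500494-92500643, minus strand: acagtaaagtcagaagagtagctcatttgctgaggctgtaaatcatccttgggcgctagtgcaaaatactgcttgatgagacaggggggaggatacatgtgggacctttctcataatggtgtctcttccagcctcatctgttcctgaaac
Rptn, chr3:93393549-93393698, plus strand: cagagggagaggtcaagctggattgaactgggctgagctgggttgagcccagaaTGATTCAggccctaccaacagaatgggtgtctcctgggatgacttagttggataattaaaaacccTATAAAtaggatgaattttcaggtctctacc

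A RefSeq promoter window was found for 38 of the 43 members, and 6 motifs were searched on both strands in the 250 bases before each start site. TGANTCA, the site of the AP-1 factors that act in keratinocyte differentiation, was present in 14 of the 38 windows (36.8%) and in 6.75% of all 32851 windows. These 14 included Lor, Ivl, Flg, Flg2, Rptn, Crnn, Tchhl1, Sprr1a and Sprr1b but no Lce gene. TATAAA was present in 17 (44.7%, against 12.4% of all windows), and in Lor, Crnn and Rptn it began 27, 29 and 31 bases before the start site. CACCC, the core of the KLF motif, was present in 15 (39.5%, against 52% of all windows). GAAANNGAA, the core of the interferon-stimulated response element, was present in 3, Sprr2a1, Sprr2a2 and Sprr2a3 (7.89%, against 7.13%). TTCNNNGAA, a STAT motif, was present in 2 (5.26%, against 7.02%), and AACCNGTT, a GRHL motif, in Rptn alone (2.63%, against 1.79%). The Sprr4 and Tchh windows held none of the 6. These are matches of letters and say nothing of binding.

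Some tumors stood apart. B16-GFP tumor 7 had the lowest level of its type in 32 of the 33 tested members other than Tchh, Tchhl1 and Crnn, and B16-IFNA9 tumor 10 in 30 of 33. The same tumors were lowest in keratinocyte genes at large: the summed CPM of 10 basal keratinocyte genes was 602 and 1208 in them and at least 2072 in the other 28 tumors. In addition, 2 B16-GFP tumors (1 and 2) and 4 B16-IFNA9 tumors (3 to 6) held more than 100 CPM of hair follicle genes. The counts of members called as DEGs are given with and without these tumors.

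Of the 36 members tested, 21 were higher in B16-IFNA4 than in B16-GFP tumors, beside 31.3% of all genes tested that were higher in this comparison, and 3 were lower (Tchh, Tchhl1 and Crnn), beside 34.1% of all genes that were lower. The median log2 fold change of the tested members was 0.73, and that of all 15926 genes was 0.01. By role, 12 of 16 Lce genes, 4 of 9 Sprr genes, 3 of 7 S100-fused genes (Flg2, Hrnr and Rptn), Ivl and Kprp were higher. With Sprr2a1, Sprr2a2 and Sprr2a3 counted as 1 gene, 19 of 34 were higher. Without Tchh, Tchhl1 and Crnn, the summed CPM of the members ranged from 180 to 1423 (median 928) in B16-GFP tumors and from 1216 to 1825 (median 1417) in B16-IFNA4 tumors. The ranges overlapped, because B16-GFP tumors 1 and 5 reached 1401 and 1423. In the fit without the 6 tumors with hair follicle genes 20 members were higher, and without B16-GFP tumor 7 and B16-IFNA9 tumor 10 there were 21, but with the basal keratinocyte level in the fit, described further on, 1 was. When single tumors were left out, the number fell most without B16-IFNA4 tumor 6, as given in the last section. That tumor had the highest level of its type in 24 of the 33 members other than Tchh, Tchhl1 and Crnn. In 18 of the 33 members, all 10 B16-IFNA4 tumors lay above the B16-GFP median.

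In B16-IFNA9 tumors fewer members differed from B16-GFP. There, 9 of 36 were higher (Hrnr, Ivl, Kprp, Lce1e, Lce1k, Lce1l, Rptn, Sprr2g and Sprr4), beside 26.9% of all genes tested that were higher, which is close to the members' 25%. Lor alone was lower, beside 28.9% of all genes that were lower, but 3 members were lower without any one of B16-GFP tumors 3 to 10 or B16-IFNA9 tumor 5, and 4 without B16-IFNA9 tumor 6. The median log2 fold change was 0.46, and the summed CPM ranged from 462 to 1539 with a median of 1273. Leaving out single tumors moved the number of higher members between 5 (without B16-GFP tumor 9, or without B16-IFNA9 tumor 1 or 2) and 15 (without B16-IFNA9 tumor 10), with 14 without B16-GFP tumor 5. Without B16-GFP tumor 7 and B16-IFNA9 tumor 10 together, 13 were higher, and without the 6 tumors with hair follicle genes 9 were.

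Between B16-IFNA9 and B16-IFNA4 tumors, 3 members were higher in B16-IFNA9 (Tchh, Tchhl1 and Crnn), beside 10.5% of all genes tested, and Lor was lower, beside 7.25% of all genes. For 27 of the other 33 members the fitted value was lower in B16-IFNA9, with a median log2 difference of -0.27, but with edgeR only Lor passed the threshold. At an unadjusted p under 0.05, 4 of the 33 were lower (Lor and 3 Sprr genes), and with DESeq2 1 was lower.

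**Figure D1:**
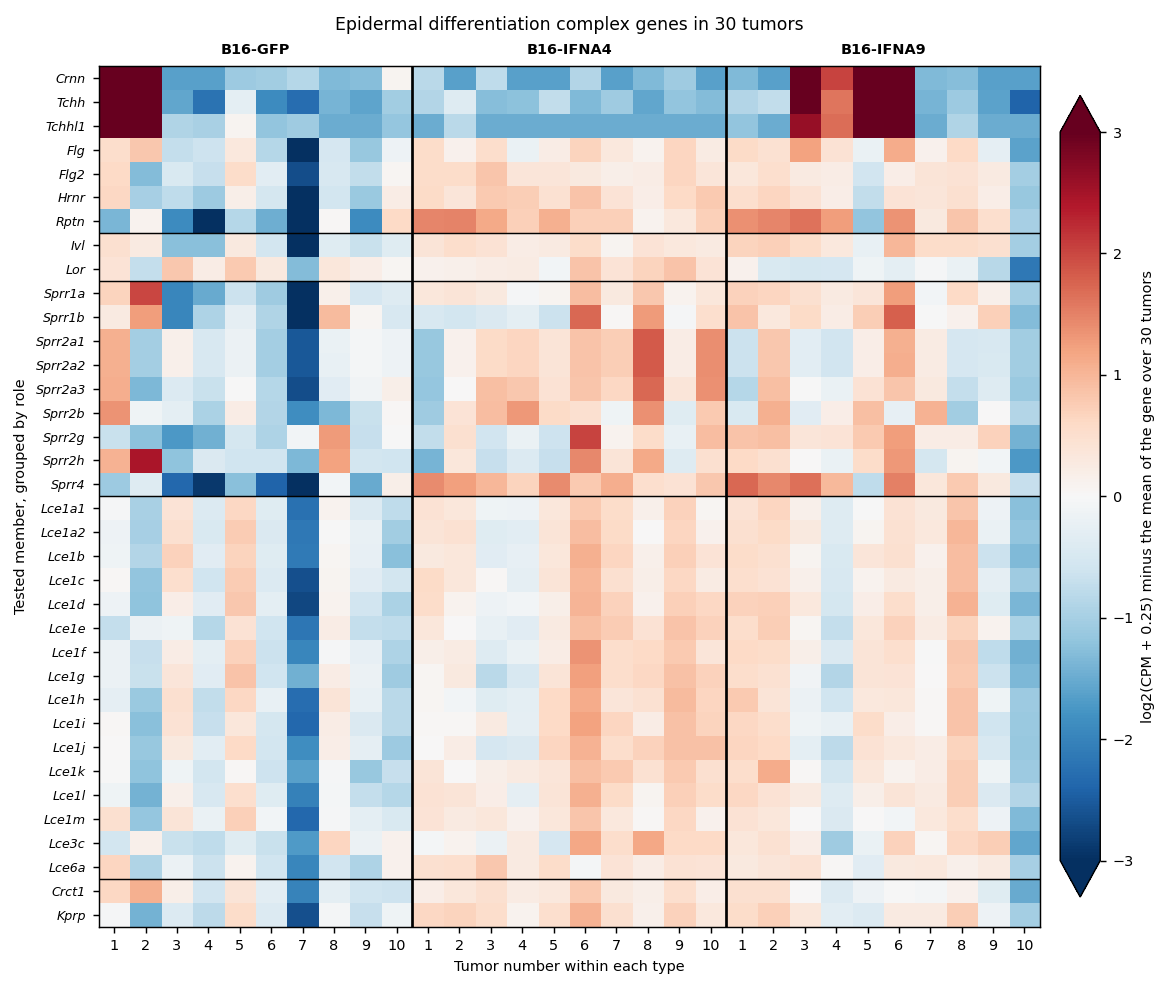
Levels of the 36 tested members (rows, grouped by role) in 30 tumors (columns, tumor number within each type), as log2(CPM + 0.25) minus the mean of the gene over all tumors; red is higher, blue is lower, and the colors end at 3 in either direction. B16-GFP tumor 7 and B16-IFNA9 tumor 10 are blue in nearly every row, and Crnn, Tchh and Tchhl1 are red in 6 tumors only.

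Because these were bulk samples, fewer cells of a type and less RNA per cell cannot be told apart. Genes of the basal layer, which are not part of the complex, moved with the members. Among 10 basal keratinocyte genes, 8 were higher in B16-IFNA4 (31.3% of all genes were) and 5 in B16-IFNA9 (26.9% of all genes were), the latter falling to 2 without the 6 tumors with hair follicle genes. They had a range of the summed CPM of 602 to 4329 in B16-GFP, 3278 to 6011 in B16-IFNA4 and 1208 to 4854 in B16-IFNA9. Krt5, the keratin of basal keratinocytes, was higher in B16-IFNA4 (0.63 ± 0.24, SE of the log2 fold change, edgeR adjusted p = 0.025), whereas Krt14, its partner, had 0.45 ± 0.26 (edgeR adjusted p = 0.13). Per 100 CPM of basal keratinocyte genes, the members summed to 23.3 to 44.0 CPM (median 30.6) in B16-GFP, 23.2 to 44.4 (median 33.04) in B16-IFNA4 and 22.9 to 41.4 (median 32.3) in B16-IFNA9 tumors, ranges that overlapped almost entirely.

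With the level of the basal keratinocyte genes in the fit beside tumor type, 1 member remained higher in B16-IFNA4 (Sprr4) and 2 in B16-IFNA9 (Sprr4 and Rptn), and the median log2 fold change of the 33 members other than Tchh, Tchhl1 and Crnn was -0.0028 and -0.04. Lor was then lower in both types, Sprr2h lower in B16-IFNA4 and Crct1 lower in B16-IFNA9, and Tchh, Tchhl1 and Crnn lower in both. The basal level itself differed between types, so that in this fit tumor type and basal level cannot be fully told apart.

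**Figure D2:**
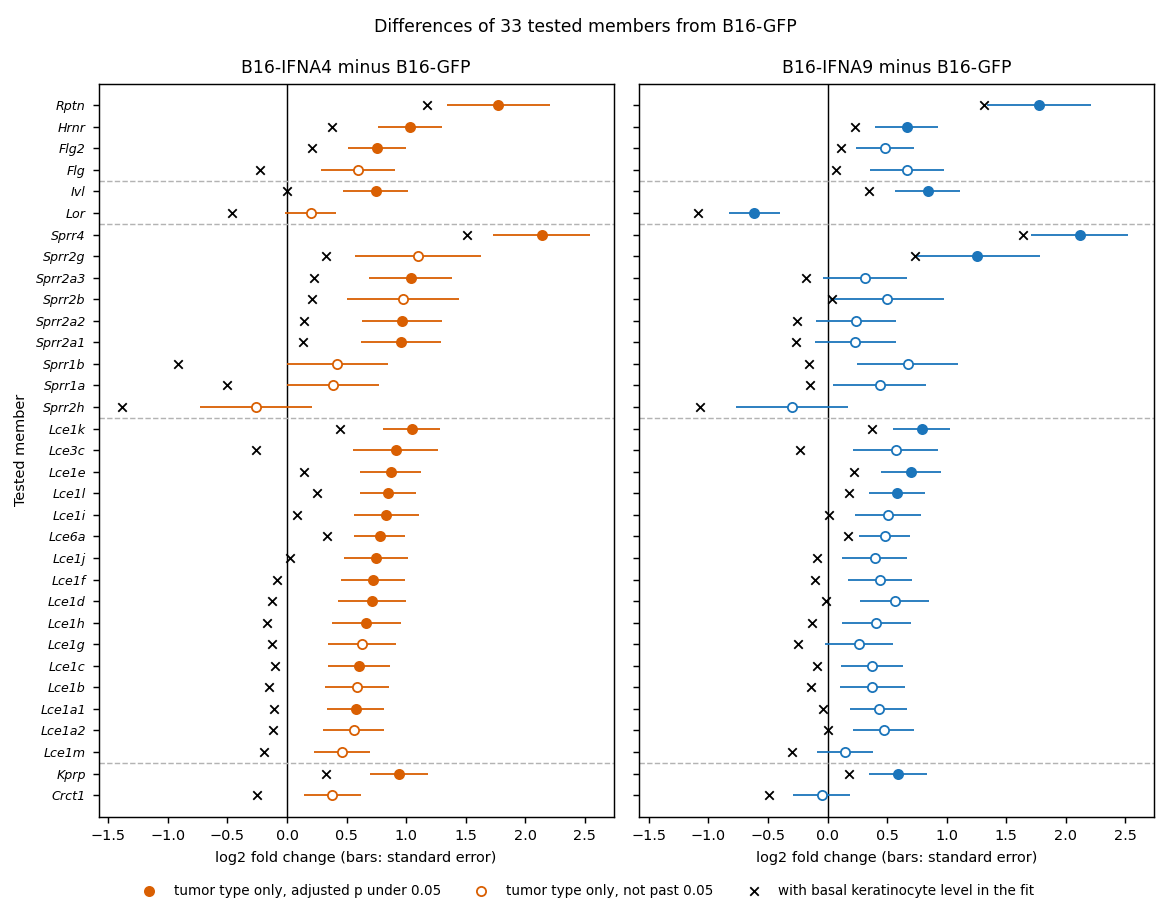
Log2 fold change against B16-GFP of the 33 tested members other than Tchh, Tchhl1 and Crnn in B16-IFNA4 (left) and B16-IFNA9 tumors (right), 10 tumors per type; circles are the fit on tumor type, filled where the adjusted p was under 0.05, with bars of 1 standard error, and crosses are the fit with the basal keratinocyte level added. Sprr4 and Rptn lie farthest right in both panels, most crosses lie near 0, and the Lor crosses lie left of 0.

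**Figure D3:**
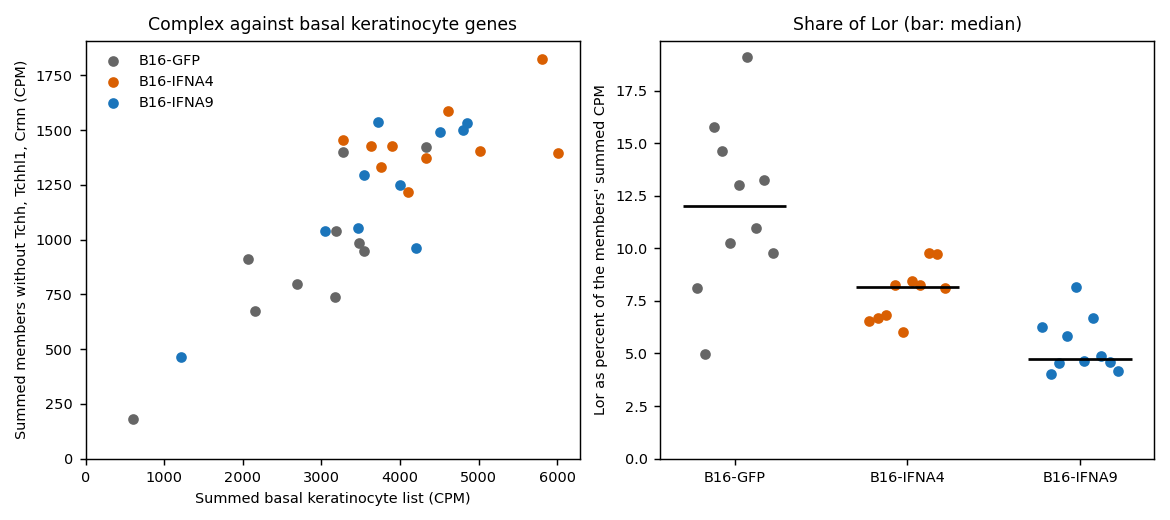
Left, summed CPM of the members without Tchh, Tchhl1 and Crnn against the summed CPM of 10 basal keratinocyte genes, 1 point per tumor. Right, Lor as a percent of the members' summed CPM in each tumor with the median as a bar: 12.0 in B16-GFP, 8.17 in B16-IFNA4 and 4.76 in B16-IFNA9.

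Sprr4, a small proline-rich gene that in skin is known as a response to ultraviolet light, showed the largest log2 fold change against B16-GFP of the 33 tested members other than Tchh, Tchhl1 and Crnn. Its level in B16-GFP tumors ranged from 0.0892 to 10.2 CPM with a median of 3.31, in B16-IFNA4 tumors from 12.3 to 24.8 with a median of 17.2, and in B16-IFNA9 tumors from 5.26 to 30.3 with a median of 16.9. Every B16-IFNA4 tumor lay above every B16-GFP tumor, the only member for which the ranges did not overlap. The B16-IFNA9 range overlapped through tumors 5 and 10. Sprr4 was 4.41-fold higher in B16-IFNA4 (log2 fold change 2.14 ± 0.41, SE, edgeR adjusted p = 4.23e-05) and 4.33-fold higher in B16-IFNA9 (2.12 ± 0.41, edgeR adjusted p = 7.55e-05). With the basal keratinocyte level in the fit it was higher by 1.51 (edgeR adjusted p = 0.0062) and 1.64 (edgeR adjusted p = 0.0015). Per kilobase of exon its median CPM was 14.3, 74.4 and 73.0 in B16-GFP, B16-IFNA4 and B16-IFNA9, place 11 of the 43 members in B16-GFP and place 3 in both interferon types.

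Rptn encodes repetin, an S100-fused envelope protein. It ranged from 0.178 to 18 CPM (median 4.27) in B16-GFP, from 12.7 to 33.5 (median 19.6) in B16-IFNA4 and from 5.05 to 37.3 (median 24.98) in B16-IFNA9 tumors. All 10 tumors of either interferon type lay above the B16-GFP median, and B16-GFP tumors 2, 8 and 10 were the highest of their type. Rptn was 3.42-fold higher in B16-IFNA4 (1.78 ± 0.43, edgeR adjusted p = 0.00074) and 3.43-fold higher in B16-IFNA9 (1.78 ± 0.43, edgeR adjusted p = 0.00099). With the basal keratinocyte level in the fit the values were 1.18 (edgeR adjusted p = 0.051) and 1.32 (edgeR adjusted p = 0.017).

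Of the other envelope genes of the S100-fused group, Hrnr was higher in both types, Flg2 in B16-IFNA4 and Flg in neither. Flg2 (filaggrin-2) had 33.7 to 324 CPM (median 155) in B16-GFP, 243 to 380 (median 276) in B16-IFNA4 and 106 to 304 (median 260) in B16-IFNA9 tumors. It was higher in B16-IFNA4 by a log2 fold change of 0.76 ± 0.24 (edgeR adjusted p = 0.0075), and the value in B16-IFNA9 was 0.48 ± 0.24 (edgeR adjusted p = 0.092). Hrnr (hornerin) had medians of 50.1, 119 and 103 CPM in the 3 types and was higher in B16-IFNA4 by 1.03 ± 0.27 (edgeR adjusted p = 0.0013) and in B16-IFNA9 by 0.66 ± 0.27 (edgeR adjusted p = 0.034). Flg, whose product filaggrin is cut into the natural moisturizing factor, had medians of 11.5, 20.8 and 23.4 CPM and did not pass the threshold in either comparison (0.60 ± 0.31 and 0.67 ± 0.31, edgeR adjusted p = 0.089 and 0.067). Without the 6 tumors with hair follicle transcripts Flg was higher in both, by 0.96 (edgeR adjusted p = 0.0058) and 0.78 (edgeR adjusted p = 0.046). Without B16-GFP tumor 7 and B16-IFNA9 tumor 10 together, Flg2 and Flg were higher in B16-IFNA9, by 0.45 (edgeR adjusted p = 0.040) and 0.65 (edgeR adjusted p = 0.018).

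**Figure D4:**
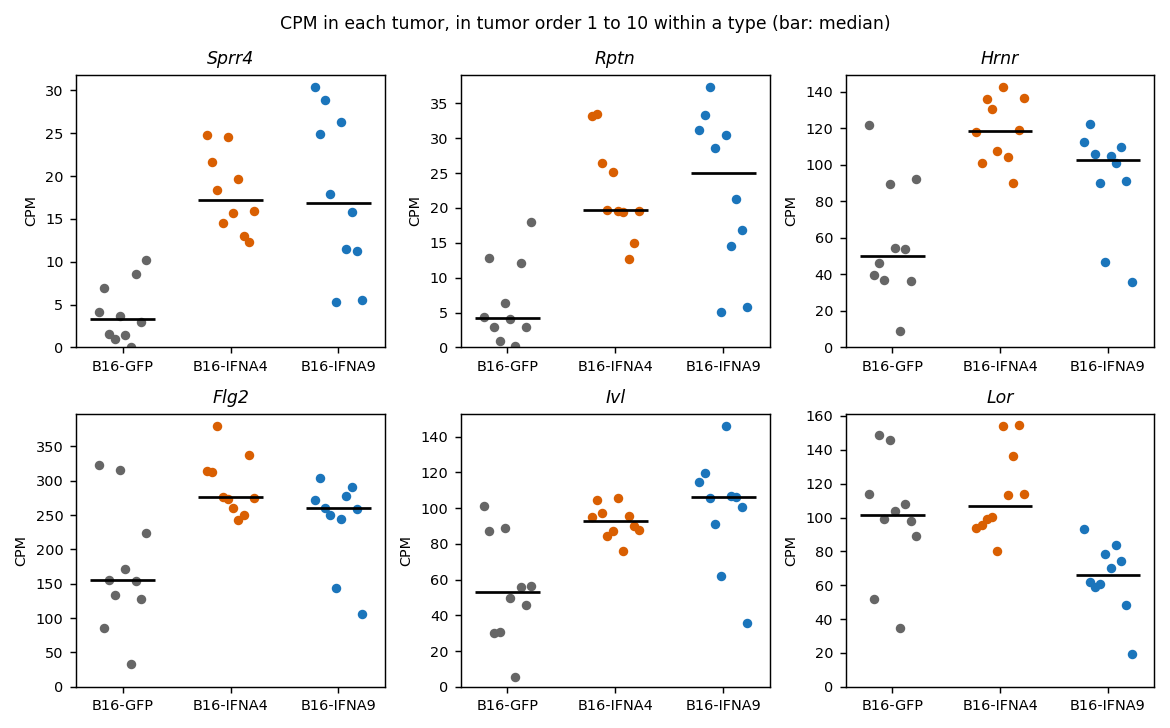
CPM of Sprr4, Rptn, Hrnr, Flg2, Ivl and Lor in each of the 30 tumors, from tumor 1 on the left to tumor 10 on the right within a type, with the median as a bar. For Sprr4 the lowest B16-IFNA4 tumor (12.3) lies above the highest B16-GFP tumor (10.2), and for Lor no B16-IFNA9 tumor reaches the B16-GFP median of 101.

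Ivl was higher in both interferon types, and Lor was lower in B16-IFNA9. Ivl, an early scaffold of the envelope, ranged from 5.53 to 101 CPM (median 52.8) in B16-GFP, from 76.0 to 106 (median 92.6) in B16-IFNA4 and from 35.7 to 146 (median 106) in B16-IFNA9 tumors. Its log2 fold changes were past the threshold in both comparisons (0.74 ± 0.27, edgeR adjusted p = 0.019, and 0.84 ± 0.27, edgeR adjusted p = 0.011). Lor, whose product is the main protein of the finished envelope, ranged from 34.5 to 149 CPM (median 101) in B16-GFP, from 80.2 to 154 (median 107) in B16-IFNA4 and from 19.2 to 93.1 (median 66.1) in B16-IFNA9 tumors. All 10 B16-IFNA9 tumors lay below the medians of both other types. Lor was lower in B16-IFNA9 than in B16-GFP (-0.61 ± 0.22, edgeR adjusted p = 0.017) and than in B16-IFNA4 (-0.82 ± 0.22, edgeR adjusted p = 0.0084), and the value of B16-IFNA4 against B16-GFP was 0.20 ± 0.22 (edgeR adjusted p = 0.42).

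As a share of the members' summed CPM, Lor made up 4.97% to 19.1% (median 12.0%) in B16-GFP, 6.02% to 9.80% (median 8.17%) in B16-IFNA4 and 4.04% to 8.17% (median 4.76%) in B16-IFNA9 tumors. The 3 ranges overlapped. Counts of Lor per count of Ivl had medians of 2.01, 1.24 and 0.611 in the same order, with overlapping ranges of 0.594 to 6.24, 0.912 to 1.72 and 0.480 to 1.27, and the difference between both genes was not tested. With the basal keratinocyte level in the fit Lor was lower by -0.47 in B16-IFNA4 (edgeR adjusted p = 0.010), which turned the direction of that value, and by -1.09 in B16-IFNA9 (edgeR adjusted p = 1.77e-07), and the difference between the interferon types was -0.62 (edgeR adjusted p = 0.00059). Scaling by library totals gave -0.53 against B16-GFP with an edgeR adjusted p of 0.051.

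The Lce genes encode short proteins added late to the inner face of the envelope. Their summed CPM ranged from 57.0 to 451 (median 224) in B16-GFP, from 264 to 542 (median 358) in B16-IFNA4 and from 118 to 483 (median 322) in B16-IFNA9 tumors. All 16 tested Lce genes had positive values in both comparisons, 0.46 to 1.05 in B16-IFNA4 and 0.14 to 0.79 in B16-IFNA9. The genes higher in both were Lce1e, Lce1k and Lce1l, of which Lce1l lost its B16-IFNA9 call without the 6 tumors that held hair follicle transcripts (0.57, edgeR adjusted p = 0.089). Lce1k had the largest difference, with medians of 2.12, 4.5 and 3.73 CPM and log2 fold changes of 1.05 ± 0.24 (edgeR adjusted p = 0.00037) and 0.79 ± 0.24 (edgeR adjusted p = 0.0061). Lce1m, which had the highest level per kilobase of exon among them and was the only Lce1 gene without shared sequence, had medians of 81.2, 112 and 90.1 CPM and the smallest values, 0.46 ± 0.24 and 0.14 ± 0.24 (edgeR adjusted p = 0.086 and 0.62).

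Lce6a, which is also free of shared sequence, had medians of 4.77, 9.86 and 8.86 CPM and was higher in B16-IFNA4 (0.78 ± 0.21, edgeR adjusted p = 0.0023). Its B16-IFNA9 value was 0.48 ± 0.21 (edgeR adjusted p = 0.057) and was past the threshold without the 6 tumors (0.63, edgeR adjusted p = 0.030). Lce3c was the only Lce3 gene tested. Human LCE3 genes are known to be induced in injured skin, and here Lce3c had a median of 10, 20.5 and 18 counts in the 3 types and was higher in B16-IFNA4 (0.91 ± 0.36, edgeR adjusted p = 0.026). Lce3d, Lce3e and Lce3f never exceeded 18, 14 and 16 counts. Between B16-IFNA9 and B16-IFNA4 the 16 Lce values lay between -0.37 and -0.09, none past the threshold with edgeR, at an unadjusted p under 0.05 or with DESeq2. Without the 6 tumors that held hair follicle transcripts, 7 of 16 Lce genes were called higher in B16-IFNA4 in place of 12, in a fit with fewer tumors. Their log2 fold changes stayed positive, and those of Lce1a1, Lce1c, Lce1d, Lce1f and Lce1h, which lost their call, were 0.52, 0.54, 0.63, 0.67 and 0.56 in place of 0.58, 0.61, 0.71, 0.72 and 0.67.

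The Sprr genes encode crosslinked proteins, and Sprr1 and Sprr2 genes are known as stress genes of epithelia. Sprr1a had the highest level per kilobase of exon of all members in each type. Its CPM ranged from 8.21 to 431 (median 72.3) in B16-GFP, from 105 to 205 (median 134) in B16-IFNA4 and from 52.9 to 257 (median 145) in B16-IFNA9 tumors. The value of 431 came from B16-GFP tumor 2, and all 10 B16-IFNA4 tumors lay above the B16-GFP median. Sprr1a did not pass the threshold (0.39 ± 0.39 and 0.44 ± 0.39, edgeR adjusted p = 0.39 and 0.34). Without the 6 tumors with hair follicle transcripts, among them B16-GFP tumor 2, it was higher in both types, by 1.25 (edgeR adjusted p = 0.0011) and 1.16 (edgeR adjusted p = 0.0065).

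Sprr2a1, Sprr2a2 and Sprr2a3, read as 1 gene, were higher in B16-IFNA4 by 0.96, 0.97 and 1.04 (edgeR adjusted p = 0.014, 0.013 and 0.011), with Sprr2a1 medians of 8.83, 15.4 and 7.62 CPM in the 3 types. In B16-IFNA9 the values were 0.23, 0.24 and 0.31 (edgeR adjusted p = 0.57, 0.56 and 0.46), and the direct differences between the interferon types, -0.72 for each, did not pass the threshold (edgeR adjusted p = 0.14, 0.14 and 0.15). Sprr2g had 1.10 ± 0.53 in B16-IFNA4 (edgeR adjusted p = 0.068) and was higher in B16-IFNA9 by 1.26 ± 0.53 (edgeR adjusted p = 0.043), at medians of 4.5, 9.5 and 17 counts, and it lost that call without the 6 tumors (0.90, edgeR adjusted p = 0.25). Sprr1b, Sprr2b and Sprr2h did not pass the threshold in any of the 3 comparisons, but Sprr2b was higher in B16-IFNA4 without the 6 tumors (1.56 in place of 0.97, edgeR adjusted p = 0.0078). The 4 Sprr genes under the count filter had at most 15 (Sprr2d), 13 (Sprr2e), 27 (Sprr2i) and 11 (Sprr2j-ps) counts in a tumor, and none of the 7 untested members was called when every gene with more than 10 counts in 1 tumor was fitted with edgeR.

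Of the remaining genes, Kprp (keratinocyte proline-rich protein) ranged from 16.3 to 152 CPM (median 77.6) in B16-GFP, from 111 to 214 (median 148) in B16-IFNA4 and from 50.4 to 173 (median 124) in B16-IFNA9 tumors. It was higher in both interferon types (0.94 ± 0.25, edgeR adjusted p = 0.0014, and 0.59 ± 0.24, edgeR adjusted p = 0.039), and without the 6 tumors with hair follicle transcripts the B16-IFNA9 value was 0.68 (edgeR adjusted p = 0.053). Crct1 had medians of 31.3, 47.8 and 37.8 CPM and values of 0.38 ± 0.24 and -0.05 ± 0.24 (edgeR adjusted p = 0.16 and 0.87), and without the 6 tumors it was higher in B16-IFNA4 (0.71, edgeR adjusted p = 0.0091).

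Tchh, Tchhl1 and Crnn behaved differently from the rest. Tchh encodes trichohyalin, which hardens the inner root sheath of the hair follicle, Tchhl1 is its neighbor and relative, and Crnn encodes cornulin. In B16-GFP tumors 1 and 2, Tchh reached 1228 and 4664 CPM, and in B16-IFNA9 tumors 3, 4, 5 and 6 it reached 65.9, 24.7, 190 and 433. In the other 24 tumors, all 10 B16-IFNA4 tumors among them, it stayed between 1.29 and 6.37 CPM. Tchhl1 and Crnn followed the same 6 tumors: Tchhl1 had 1936, 6234, 69, 37, 302 and 641 counts in them and 0 to 9 counts in the others, and Crnn had 1912, 5107, 112, 54, 221 and 789 counts and 0 to 9 counts in the others.

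These 6 tumors were the ones in which a list of 17 hair follicle genes outside the complex, chosen for the inner root sheath and hair shaft, summed to more than 100 CPM: 2781 and 10794 in B16-GFP tumors 1 and 2 and 328, 129, 565 and 1350 in B16-IFNA9 tumors 3 to 6, against 10.8 to 94.6 elsewhere. Krt71 and Krt25, inner root sheath keratins, ranged from 20.9 to 3811 and from 20.1 to 2500 CPM in the 6 tumors and had at most 4.62 and 4.67 CPM in the other 24. Prr9, a gene inside the complex that the rule did not take, showed 5.65 to 981 CPM in the 6 and at most 1.26 CPM in the others. S100a3, a hair cuticle gene beside the complex, had 1.61 to 299 and at most 0.748 CPM.

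In the test, Tchh was lower in B16-IFNA4 than in B16-GFP (-7.33 ± 1.64, edgeR adjusted p = 0.0003) and higher in B16-IFNA9 than in B16-IFNA4 (4.32 ± 1.45, edgeR adjusted p = 0.037), and Tchhl1 and Crnn were called in the same directions. In B16-IFNA9 against B16-GFP, Tchh had -3.01 ± 1.32, Tchhl1 -2.95 ± 1.28 and Crnn -2.57 ± 1.26, which did not pass the threshold (edgeR adjusted p = 0.053, 0.050 and 0.081). Without the 6 tumors, the Tchh values were 0.34 (edgeR adjusted p = 0.25) and -0.19 (edgeR adjusted p = 0.70), both with the other sign, Tchhl1 and Crnn fell under the count filter, and no member was lower in B16-IFNA4 or higher in B16-IFNA9 than in B16-IFNA4. Leaving out B16-IFNA9 tumor 6 alone also ended all 3 calls against B16-IFNA4. Whether hair follicles in these tumors accounted for the 3 calls was not tested. Of the 17 hair follicle genes, 15 were lower in B16-IFNA4 than in B16-GFP (34.1% of all genes were) and none was higher with edgeR or at an unadjusted p under 0.05 (1 with DESeq2). When those 6 tumors were left out, 1 was lower and 4 were higher. In B16-IFNA9, 4 were lower than in B16-GFP (28.9% of all genes were), 8 at an unadjusted p under 0.05, 15 with the basal keratinocyte level in the fit and 1 without the 6 tumors. Those 6 tumors had been chosen by the summed CPM of these same 17 genes, so the counts without them are not an independent result.

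**Figure D5:**
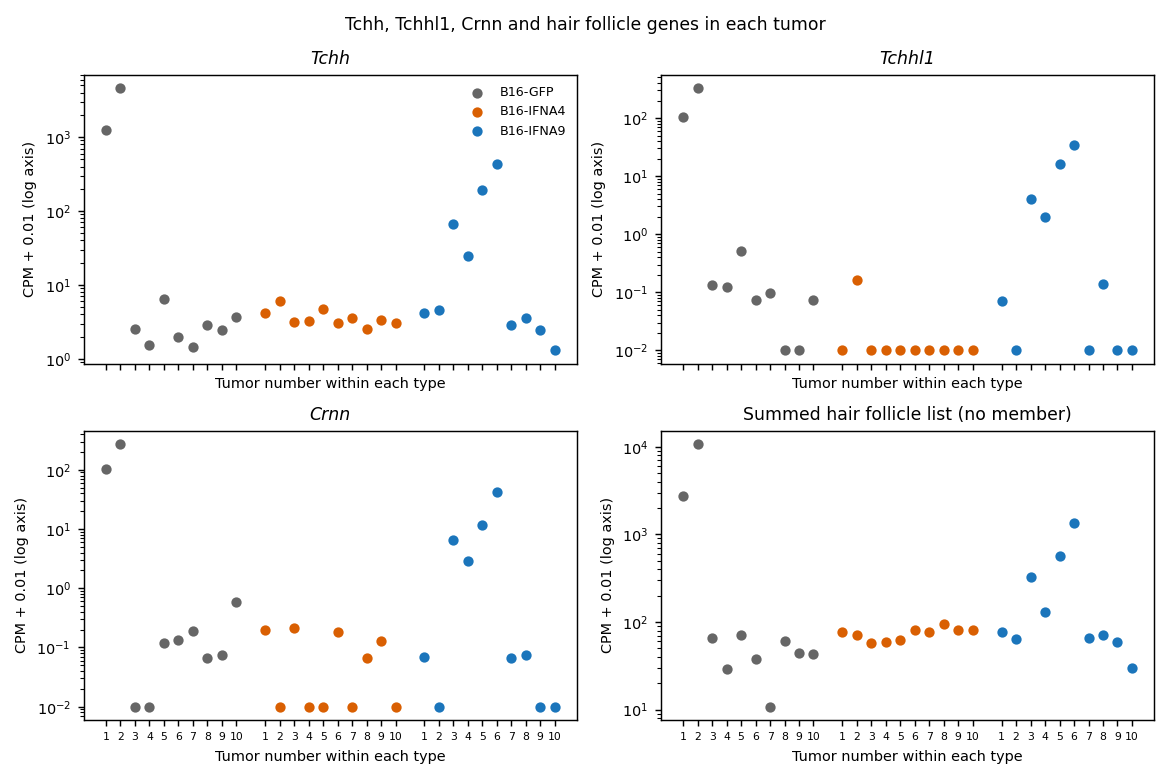
CPM + 0.01 on a log axis of Tchh, Tchhl1, Crnn and the summed list of 17 hair follicle genes outside the complex, 1 point per tumor. The same 6 tumors, B16-GFP 1 and 2 and B16-IFNA9 3 to 6, stand above all others in each panel.

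Genes of the same epidermal program outside the complex were counted from lists chosen with earlier results of these data known. Among 12 suprabasal keratinocyte and desmosome genes, 11 were higher in B16-IFNA4 and 3 in B16-IFNA9, beside 31.3% and 26.9% of all genes. The B16-IFNA9 count was 9 without B16-GFP tumor 7 and B16-IFNA9 tumor 10. With the basal keratinocyte level in the fit the counts of higher genes were 0 and 0, while 1 was lower in B16-IFNA4 and 2 in B16-IFNA9. Krt10 and Krt77, keratins of the layers above the basal one, had log2 fold changes of 0.91 ± 0.25 (edgeR adjusted p = 0.002) and 0.82 ± 0.25 (edgeR adjusted p = 0.0043) in B16-IFNA4 and of 0.47 ± 0.25 and 0.32 ± 0.24 in B16-IFNA9 (edgeR adjusted p = 0.11 and 0.27). Among 7 cornified envelope genes outside the complex, 4 were higher and 1 lower in B16-IFNA4, and 2 higher and 1 lower in B16-IFNA9, where the share of 2 in 7 is close to the 26.9% of all genes higher and that of 1 in 7 is below the 28.9% lower. With the basal level in the fit 1 was higher and 3 lower, and 1 higher and 4 lower. Asprv1, the protease that processes filaggrin, was higher in B16-IFNA4 (0.65 ± 0.24, edgeR adjusted p = 0.018), as was Cdsn, the corneodesmosome adhesion gene (0.65 ± 0.25, edgeR adjusted p = 0.026). Tgm3, a transglutaminase of the hair follicle and the upper epidermis, was the lower one in both types (-1.46 ± 0.55 and -1.64 ± 0.55, edgeR adjusted p = 0.021 and 0.013). Among the 6 tumors with hair follicle transcripts, it had 13.8 and 37.8 CPM in B16-GFP tumors 1 and 2. In B16-IFNA9 tumors 3 to 6 it had 1.40 to 6.02 CPM, and in the other tumors at most 4.07 CPM. Without the 6 tumors Tgm3 was no longer called as lower.

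Of 11 barrier lipid genes, 9 were higher in B16-IFNA4 and 7 in B16-IFNA9, beside 31.3% and 26.9% of all genes, and 4 and 3 with the basal keratinocyte level in the fit. Elovl4, which makes very long fatty acids for ceramides, was higher in both (0.84 ± 0.21, edgeR adjusted p = 0.0011, and 0.79 ± 0.21, edgeR adjusted p = 0.0023), and Ugcg, the glucosylceramide synthase, in B16-IFNA4 (0.39 ± 0.09, edgeR adjusted p = 0.00052). Smpd1, a sphingomyelinase found in most cells, was lower in both (-1.18 ± 0.15, edgeR adjusted p = 5.4e-08, and -0.74 ± 0.14, edgeR adjusted p = 9.1e-05). Among 10 epidermal proteases and inhibitors, 5 were higher in each type, but with the basal level in the fit 1 was higher and 3 lower in B16-IFNA4 and 2 higher and 1 lower in B16-IFNA9. Those higher on tumor type alone included Spink5, the inhibitor of skin kallikreins (1.12 ± 0.25, edgeR adjusted p = 0.00026, and 0.88 ± 0.25, edgeR adjusted p = 0.0033), and Klk7, which cuts corneodesmosomes (0.56 ± 0.23 and 0.58 ± 0.23, edgeR adjusted p = 0.035 in both). All 7 sebaceous gland genes were higher in B16-IFNA4 and 5 in B16-IFNA9 (4 and 4 with the basal level in the fit), with 1.28 ± 0.23 and 1.25 ± 0.23 for Far2 (edgeR adjusted p = 2.4e-05 and 5.2e-05) and 1.00 ± 0.26 and 0.84 ± 0.26 for Fa2h (edgeR adjusted p = 0.0014 and 0.0074).

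Of 14 transcription factors and regulators of epidermal differentiation, 9 were higher in B16-IFNA4 and 4 in B16-IFNA9, where the share of 4 in 14 is close to the 26.9% of all genes. With the basal keratinocyte level in the fit, 2 were higher and 1 lower in B16-IFNA4, and 1 higher and 3 lower in B16-IFNA9. Trp63, which maintains the basal state and is also on the basal list, had 0.71 ± 0.23 and 0.62 ± 0.23 (edgeR adjusted p = 0.0071 and 0.02), and Klf4, which drives barrier formation, had 0.67 ± 0.20 (edgeR adjusted p = 0.0046) and 0.32 ± 0.20 (edgeR adjusted p = 0.17). Of 8 AP-1 genes tested, Jun and Atf3 were higher in B16-IFNA4, and in B16-IFNA9 Atf3 was higher while Fos and Fosb were lower, shares at or below those of all genes (31.3% higher in B16-IFNA4, 26.9% higher and 28.9% lower in B16-IFNA9). Fosl2 had 0.25 ± 0.13 and -0.04 ± 0.13 (edgeR adjusted p = 0.10 and 0.80), and Fos had -0.48 ± 0.16 in B16-IFNA9 (edgeR adjusted p = 0.011) and was lower than in B16-IFNA4 by -0.73 (edgeR adjusted p = 0.0014). The calls of Fos and Fosb against B16-GFP were lost without the 6 tumors with hair follicle transcripts. Between the interferon types, 3 of the 8 AP-1 genes were lower in B16-IFNA9 than in B16-IFNA4, beside 7.25% of all genes. That number was 7 at an unadjusted p under 0.05 and 4 with DESeq2. With the basal keratinocyte level in the fit, 5 AP-1 genes were lower in B16-IFNA9 than in B16-GFP and 2 were lower than in B16-IFNA4. Krt17 and Krt16, keratins of activated keratinocytes, did not pass the threshold in B16-IFNA4 (0.25 ± 0.33 and 0.55 ± 0.27, edgeR adjusted p = 0.51 and 0.073), and in B16-IFNA9 they had 0.18 ± 0.33 and 0.38 ± 0.27 (edgeR adjusted p = 0.66 and 0.23). The third gene of that list, Serpinb3a, was higher in B16-IFNA4 (1.22 ± 0.36, edgeR adjusted p = 0.004). With the basal keratinocyte level in the fit, 0 genes of that list were higher and 2 were lower in B16-IFNA4.

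Of 14 S100 and peptidoglycan recognition genes within or beside the complex, 6 were higher and 5 lower in B16-IFNA4, and 5 were higher and 5 lower in B16-IFNA9. Of all genes, 31.3% were higher and 34.1% lower in B16-IFNA4, and 26.9% higher and 28.9% lower in B16-IFNA9. Between the interferon types, 4 of the 14 were lower in B16-IFNA9 than in B16-IFNA4, beside 7.25% of all genes. With the basal keratinocyte level in the fit, 4 were higher and 6 lower in B16-IFNA4, and 2 higher and 7 lower in B16-IFNA9. S100a11 and S100a10, expressed in many cell types, were higher in both (0.50 ± 0.09 and 0.61 ± 0.10 in B16-IFNA4, edgeR adjusted p = 1.2e-05 and 8.2e-06), as were Pglyrp3 and Pglyrp4. S100a1, S100a3, S100a7a, S100a8 and S100a9 were lower in both, but without the 6 tumors with hair follicle transcripts 1 gene of the list was lower in B16-IFNA4 and 3 in B16-IFNA9, and with DESeq2 4 and 3. A further 13 tested genes lie between Lor and Tchhl1 and are not members. Of these, 2 were higher and 8 lower in B16-IFNA4 (31.3% and 34.1% of all genes were). In B16-IFNA9, 1 was higher and 6 were lower (26.9% and 28.9% of all genes were). The lower ones included Prr9 and 5 pseudogenes, and the higher ones in B16-IFNA4 were 2310046K23Rik and 2310050C09Rik.

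Markers of other cells that a tumor in the skin can hold were counted beside these. For comparison, 31.3% of all genes were higher and 34.1% lower in B16-IFNA4, and 26.9% higher and 28.9% lower in B16-IFNA9. All 4 melanocyte genes found were lower in both interferon types, with -1.97 ± 0.19 and -1.17 ± 0.19 for Tyrp1 (edgeR adjusted p = 4.3e-10 and 7e-06) and -1.24 ± 0.18 and -0.97 ± 0.18 for Tyr (edgeR adjusted p = 1.1e-06 and 6e-05). Their summed CPM ranged from 7597 to 24756 in B16-GFP, from 2277 to 3777 in B16-IFNA4 and from 3500 to 9243 in B16-IFNA9, with the highest value of B16-GFP in tumor 7 and of B16-IFNA9 in tumor 10. Of 4 leukocyte genes, 3 were higher in each type, led by Ptprc (2.65 ± 0.23 and 2.14 ± 0.23, edgeR adjusted p = 6.2e-11 and 8.2e-09), whereas Csf1r had -0.28 ± 0.18 and -0.05 ± 0.18 (edgeR adjusted p = 0.18 and 0.84). The 9 skeletal muscle genes did not pass the threshold in B16-IFNA4, nor at an unadjusted p under 0.05 or with DESeq2, and 5 were lower in B16-IFNA9 (7 at an unadjusted p under 0.05 and with DESeq2, and 9 without the 6 tumors with hair follicle transcripts) and 8 were lower than in B16-IFNA4 (7.25% of all genes were). Those lower against B16-GFP included Acta1 (-1.19 ± 0.33, edgeR adjusted p = 0.0028), while Myh4 had -0.63 ± 0.32 (edgeR adjusted p = 0.093). None of 6 adipocyte genes passed with edgeR, with 2 higher in B16-IFNA4 and 1 in B16-IFNA9 both at an unadjusted p under 0.05 and with DESeq2. Fabp4 and Adipoq had 0.10 ± 0.24 and 0.51 ± 0.28 in B16-IFNA4 (edgeR adjusted p = 0.72 and 0.10) and -0.07 ± 0.24 and 0.22 ± 0.28 in B16-IFNA9 (edgeR adjusted p = 0.83 and 0.51). The part of these cells in the members' levels was not tested.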

How the data were processed

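RNA from 30 whole tumors was sequenced as stranded mRNA libraries with single reads of 50 bases. The authors checked reads with FastQC 0.11.3, aligned them with HISAT2 2.0.4 and deposited 1 table of raw read counts per gene, made with summarizeOverlaps and not normalized. The submitters' notes name mm10 and the methods mm11, and the annotation release, overlap mode, strand setting and treatment of reads with several alignments are not given in the sources used here. Each of the 39676 Ensembl identifiers was named from GENCODE M21 (GRCm38): 36719 were found in the same version and 39495 in any version.

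Counts were fitted over all 30 tumors with edgeR 4.0.16 in R 4.3.3 (TMM scaling, quasi-likelihood test, mean of at least 10 counts, no covariate), with Benjamini-Hochberg adjustment at 0.05. The code was tested on simulated data. DESeq2 1.42.0, other scalings and filters, the replicate number, a basal keratinocyte covariate and leaving out tumors were alternatives. Nothing in the labels says more on replicates than separate tumors, so p-values measure the spread between these tumors. Totals per tumor of 14598517 to 19788383 counts set the precision, and genes under the filter are given by counts.

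The members and gene lists were chosen with earlier results of these data known. By the naming rule all members were described, and from each list the 2 tested genes with the highest mean CPM and those called against most of their list. Serpinb3a, Jun, Atf3, Fosb, the hair follicle genes Prr9 and S100a3, and the S100 and Pglyrp genes beyond the first were named after their values were seen. Protein sequences were not used here.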

Additional observations from a re-analysis of the deposited data

Results flagged for a closer look

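Within each tumor type, the lowest or highest log2 CPM of a tested member (prior count of 2) was compared with the nearest other tumor. In 11 of 108 groups of 10 tumors the gap divided by the range was above Dixon's 95% critical value, where chance gives about 1 in 20, or 5.4 groups. B16-GFP tumor 7 was far below the other B16-GFP tumors in 4 of them: Flg (log2 CPM 0.71), Hrnr (3.16), Ivl (2.50) and Lce1e (-0.12). B16-IFNA9 tumor 10 was far below the others of its type in 6: Crct1 (3.76), Flg (2.48), Lce1m (5.15), Lce6a (1.86), Lor (4.27) and Sprr2g (-2.49). In B16-IFNA4, tumor 2 was the highest for Tchhl1 (-1.89), where it had 3 counts and the other 9 tumors had 0.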

How the results depend on the processing

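Replicate numbers did not pair the tumors: same-numbered tumors correlated between -0.27 and 0.30, over 0.1 in 2, 2 and 0 of 10 pairs for B16-IFNA4 and B16-IFNA9 against B16-GFP and for B16-IFNA9 against B16-IFNA4, and 1, 1 and 0 tumors correlated best with their own number. With the replicate number as a block, 26 members were higher and 2 lower in B16-IFNA4, 10 and 1 in B16-IFNA9, and 2 and 1 between the interferon types, with 10249, 8626 and 2538 DEGs among all genes in place of 10412, 8876 and 2833.

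With the basal keratinocyte covariate, 1 member was higher and 5 lower in B16-IFNA4, and 2 higher and 5 lower in B16-IFNA9. In that fit 16 of the 32 positive B16-IFNA4 values turned negative. Among them were 7 members that had been called and Lor, which was called as lower: Ivl (-0.0028), Lce1a1 (-0.11), Lce1c (-0.10), Lce1d (-0.12), Lce1f (-0.080), Lce1h (-0.17), Lce3c (-0.26) and Lor (-0.47). The other 8 (Crct1, Flg, Lce1a2, Lce1b, Lce1g, Lce1m, Sprr1a and Sprr1b) passed the threshold in neither fit. Under edgeR's own expression filter, 1 member was lower in B16-IFNA4 and 1 higher in B16-IFNA9 than in B16-IFNA4, since Tchhl1 and Crnn were not tested there. Without the 6 tumors with hair follicle transcripts, an alternative chosen after seeing the data, both counts were 0 and Tchh had 0.34 and -0.19. In B16-IFNA9 against B16-GFP, 2 members were lower with DESeq2 size factors, 0 with library totals and 3 without B16-GFP tumor 7. With only the 20 tumors compared, 2 members were lower between the interferon types and 4332 genes differed. The cause of these shifts was not tested.

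Leaving out 1 tumor at a time gave 15 (without B16-IFNA4 tumor 6) to 25 higher and 3 to 3 lower members in B16-IFNA4, 5 to 15 higher (14 without B16-GFP tumor 5) and 1 to 4 lower in B16-IFNA9 (3 without any one of B16-GFP tumors 3 to 10 or B16-IFNA9 tumor 5, and 4 without B16-IFNA9 tumor 6), and 0 (without B16-IFNA9 tumor 6) to 3 higher and 1 to 1 lower between the interferon types. Among all genes the DEGs ranged from 9949 to 10547, from 8410 to 9195 and from 2106 to 3801. The 7 members under the count filter were fitted only with the filter of more than 10 counts in 1 tumor, where none was called.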
